A study of Mus musculus with 24 samples.

Results

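A set of 6 genes that serve the lamellar bodies and surfactant of AEC2s was followed, namely Abca3, Lamp3, Lpcat1, Napsa, Ctsh, and Slc34a2. They were taken by name, and all 6 were found among the 55421 mouse genes of the count table. Each of the 6 was also among the 18046 genes that had enough reads to be tested. AEC2s are the cuboidal, surfactant-making cells of the alveolus, and in 2D culture they leave this state and take on features of the flat AEC1s. The study asked whether keratin 8 influences that course. Cells labelled as alveolar epithelial and as WT (Krt8+/+) or KO (Krt8-/-) were obtained as AEC2s from mice as 3 biological replicates, and RNA was sequenced on day 0, when the cells were fresh, and on days 1, 3, and 7 of 2D culture. Every library of a given replicate number carries the same batch in the labels, and 24 libraries formed 8 groups of 3. The Krt8-/- mice carried the Krt8 deletion in all tissues, and no other allele or agent is named in the labels of these groups.

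A lamellar body is a lysosome-related organelle in which surfactant lipid is packed in tight membrane sheets before it is secreted onto the alveolar surface. Lipid is made in the endoplasmic reticulum, pumped into the organelle across its limiting membrane, and joined there by the small hydrophobic surfactant proteins, which are cut from larger precursors by lysosomal-type proteases. Of the genes followed, Lpcat1 encodes an acyltransferase that makes dipalmitoyl phosphatidylcholine, the main surfactant lipid, and Abca3 encodes the ATP-driven transporter that loads phospholipid into the organelle. Lamp3 encodes a glycoprotein of the limiting membrane, which mature dendritic cells also carry. Napsa and Ctsh encode an aspartic and a cysteine protease, napsin A and cathepsin H, that process surfactant protein precursors. Slc34a2 encodes the sodium-phosphate cotransporter NaPi-IIb, which lies in the apical membrane of AEC2s rather than in the organelle and recovers phosphate from the alveolar fluid.

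Levels are given as CPM, the counts of a gene per 1e6 counts of its library, scaled with edgeR's TMM factors, from libraries of 10184439 to 19483386 counts. Differences are log2 differences with their standard error (SE) from edgeR's quasi-likelihood F test in 1 model of the 24 libraries, and p values were adjusted over all 18046 genes with a threshold of 0.05. Krt8 itself averaged 523 CPM on day 0 and 3208 to 4030 CPM on later days in Krt8+/+ cells, against 29.6 to 38.2 CPM in Krt8-/- cells. The 4 AEC2 markers Sftpc, Sftpb, Etv5, and Sfta2 summed to 156873 to 231096 CPM on day 0 and to 44.3 to 105 CPM on day 7. The 4 AEC1 markers Ager, Hopx, Pdpn, and Aqp5 summed to 2246 to 3470 CPM and to 1027 to 1782 CPM on these days. Ager made up most of these sums, with a mean in Krt8+/+ cells of 1909 CPM on day 0 and 984 CPM on day 7. Hopx went from 43.2 to 156 CPM and Pdpn from 3.13 to 81.9 CPM there. Of the 4 AEC1 markers, 2 were called higher on day 7 and 1 lower in Krt8+/+ cells. In replicate 1 the Krt8+/+ libraries carried Xist at 62.4 to 79.5 CPM and the Krt8-/- libraries carried Y-linked genes at 173 to 191 CPM with Xist at 5.92 to 12.0 CPM, so sex and genotype cannot be told apart there. Replicates 2 and 3 were each of 1 sex pattern in both genotypes. The RNA came from cell populations, in which fewer cells that express a gene and less RNA per cell cannot be told apart.

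All 6 genes fell in 2D culture. In Krt8+/+ cells, each of the 6 was lower on days 1, 3, and 7 than on day 0 (adjusted p between 1.4e-08 and 0.00259 for the 5 genes other than Ctsh, and 8.6e-07, 2.6e-07, and 1.5e-09 for Ctsh). Of all genes tested, 28.5%, 27.8%, and 30.2% were lower on these 3 days. The share called higher was 26.2% on day 1 and 28.6% on day 7. In Krt8-/- cells the 6 were again lower on each of these days, where the share of all genes called lower was 26.9%, 26.6%, and 29.9%. For every gene and genotype, the day 0 libraries lay above those of any later day without overlap. Over all genes, that was so for 29.9%, 31.4%, and 33.3% on these 3 days in Krt8+/+ and for 30.5%, 31.4%, and 33.2% in Krt8-/- cells. Markers of other cells also changed over the course. The 4 club or ciliated markers summed to 5444 to 19262 CPM on day 0 and to 14.2 to 34.0 CPM on day 7, with all 4 called lower in Krt8+/+ cells and Scgb3a2 at 0 counts in all libraries of day 7. The 5 fibroblast markers summed to 290 to 975 CPM and to 797 to 2977 CPM, with 2 called higher and 2 lower and none at 0 in all libraries of a group. The part of these cells in the losses was not tested. As a share of a library's reads, the 6 together made up 1.97% to 2.51% on day 0 and 0.0995% to 0.447% a day later. By day 3 that share was 0.0744% to 0.119%, and by day 7 it was 0.0391% to 0.0577%.

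**Figure D1:**
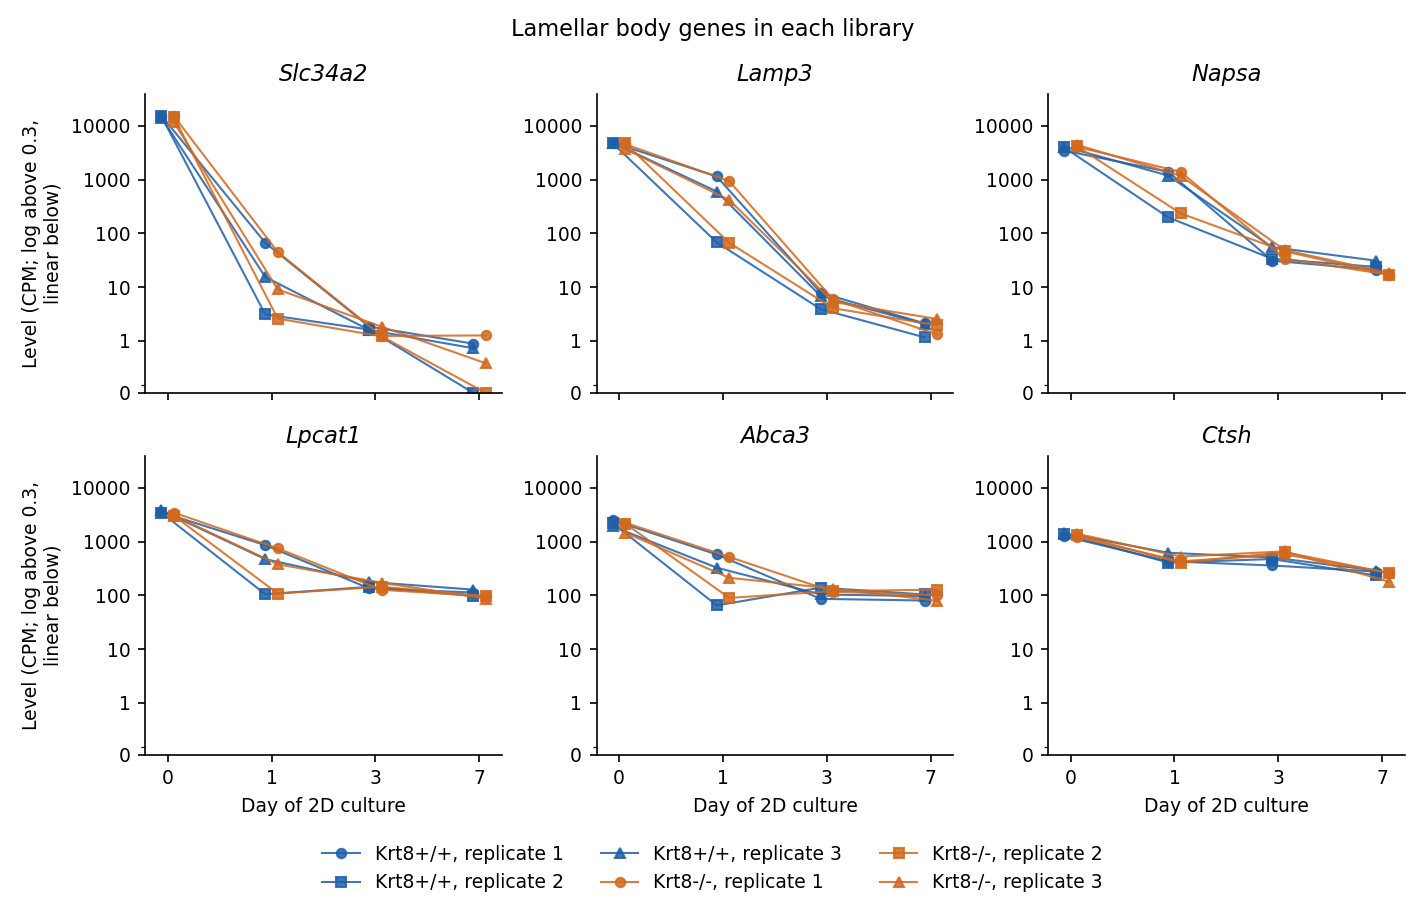
Level of each gene (CPM, logarithmic above 0.3 and linear below) against the day of 2D culture, with 1 line per genotype and replicate. On day 1 replicate 2 (squares) is the lowest of each genotype in all 6 panels, by 7.07 to 21.6 times under replicate 1 in Krt8+/+ cells except for Ctsh, and Slc34a2 reaches 0 in replicate 2 on day 7.

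Slc34a2 (ENSMUSG00000029188, chr5:53038081-53071664 of GRCm38, plus strand) lost the most of the 6. In replicates 1, 2, and 3, Krt8+/+ cells held it at 15516, 15168, and 14302 CPM on day 0 and at 66.6, 3.09, and 15.4 CPM on day 1. On day 3 the same replicates held 1.84, 1.62, and 1.59 CPM, and on day 7 they held 0.885, 0.00, and 0.729 CPM, from 13, 0, and 11 counts. Replicate 2 was the lowest on day 1, and from day 3 on all 3 replicates were under 2 CPM. Its log2 change from day 0 was −9.04 (SE 1.08) on day 1, −13.12 (SE 1.27) on day 3, and −14.67 (SE 1.37) on day 7. On day 1 only 2 of the 18046 genes had a more negative change in Krt8+/+ cells, where Slc34a2 ranked 3, and on day 7 it ranked 8. Krt8-/- cells went from 15180, 14498, and 11760 CPM on day 0 to 44.9, 2.59, and 9.03 CPM on day 1, then to 1.23, 1.21, and 1.83 CPM on day 3. On day 7 they held 1.26, 0.00, and 0.383 CPM, from 22, 0, and 6 counts. The 2 libraries with a count of 0 allow up to 0.249 CPM in Krt8+/+ and 0.233 CPM in Krt8-/- cells (3 counts of each library, counting error only).

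Lamp3 (ENSMUSG00000041247, chr16:19653378-19706375, minus strand) had the next largest loss. Krt8+/+ cells held it at 4883, 4707, and 4838 CPM on day 0, and at 1143, 67.9, and 600 CPM on day 1. On day 3 it stood at 7.87, 3.89, and 6.81 CPM, and on day 7 at 2.11, 1.16, and 2.05 CPM. The levels of the 4 days did not overlap. The log2 change from day 0 was −2.99 (SE 0.72) on day 1, −9.60 (SE 0.97) on day 3, and −11.38 (SE 1.06) on day 7. Levels in Krt8-/- cells were 4556, 4730, and 3703 CPM on day 0 and 935, 66.6, and 418 CPM on day 1. They were 5.90, 4.04, and 5.28 CPM on day 3 and 1.32, 1.95, and 2.55 CPM on day 7. The 4 markers of mature dendritic cells (Ccr7, Flt3, Ccl22, and Zbtb46) summed to 10.3 to 19.1 CPM on day 0, to 5.16 to 33.9 CPM on day 1, and to 4.75 to 7.36 CPM on day 7. Only Zbtb46 had reads throughout. Flt3 had 0 counts in all libraries of days 3 and 7, and Ccl22 had 0 counts in all Krt8-/- libraries. The part of such cells in the Lamp3 level was not tested.

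The sequences around the starts of Slc34a2 and Lamp3 are shown because these genes had the largest losses and because their promoters differ in base composition. RefSeq (GRCm38.p6) gave a stretch of 300 bases, from 250 before to 50 after the start, for 4 of the 6 genes, which are Abca3, Lamp3, Lpcat1, and Slc34a2. Capitals mark matches to TTGCGCAA, a palindrome that C/EBP factors can bind, in Slc34a2, and to TGTTTAC, a forkhead motif of FOXA factors, in Lamp3. Both lines read 5′ to 3′ on the strand of the gene. The first is chr5:53049103-53049402 (plus strand) and the second chr16:19706316-19706615 (minus strand).
Slc34a2: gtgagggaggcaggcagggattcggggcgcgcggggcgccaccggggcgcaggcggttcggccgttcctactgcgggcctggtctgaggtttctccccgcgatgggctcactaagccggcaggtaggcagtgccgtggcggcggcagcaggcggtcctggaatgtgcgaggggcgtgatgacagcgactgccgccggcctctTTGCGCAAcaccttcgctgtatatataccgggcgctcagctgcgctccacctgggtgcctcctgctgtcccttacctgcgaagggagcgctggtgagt
Lamp3: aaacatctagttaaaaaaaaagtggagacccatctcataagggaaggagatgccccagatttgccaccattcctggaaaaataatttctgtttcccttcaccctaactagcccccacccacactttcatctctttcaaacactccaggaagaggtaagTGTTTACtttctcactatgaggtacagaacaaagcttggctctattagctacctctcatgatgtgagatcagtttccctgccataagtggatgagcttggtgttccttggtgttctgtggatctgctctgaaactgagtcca
The match in Slc34a2 began 48 bases before the start, and that in Lamp3 92 bases before it. The other motifs searched, CACTTNA for NKX2-1 and AGATAA for GATA factors, had no match in any of the 4 stretches, on either strand, and Abca3 and Lpcat1 held none of the 4 motifs. Over 32851 promoters of the same length, 0.183% held TTGCGCAA, 3.65% TGTTTAC, 11.5% CACTTNA, and 11.2% AGATAA. The motifs were chosen after the sequences and the losses were seen, and no motif of the set overlapped another. The Slc34a2 stretch was 68.7% G or C with 30 CpG pairs, Abca3 69.7% with 29, and Lpcat1 64.0% with 25. Lamp3 was 43.7% G or C and held 0 CpG pairs, against medians of 52.7% and 7.00 pairs over all promoters. The RefSeq start of Slc34a2 lies 11272 bases inside the GENCODE gene, while for the other 3 genes the starts differed by 10 to 73 bases.

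Napsa (ENSMUSG00000002204, chr7:44572380-44586862, plus strand) fell less than Slc34a2, Lamp3, Lpcat1, and Abca3 on day 1 and then lost nearly all of its level. Krt8+/+ cells held it at 3457, 3957, and 4124 CPM on day 0 and at 1399, 198, and 1185 CPM on day 1. On day 3 it was at 31.0, 33.6, and 55.3 CPM and on day 7 at 21, 23.7, and 31.0 CPM. On day 1, 40.5%, 5.0%, and 28.7% of its own day 0 level was left in replicates 1, 2, and 3, in each the largest share among the genes other than Ctsh. The log2 change from day 0 was −2.05 (SE 0.53) on day 1, −6.59 (SE 0.65) on day 3, and −7.25 (SE 0.67) on day 7. Krt8-/- cells held 4078, 4181, and 4450 CPM on day 0, 1392, 235, and 1174 CPM on day 1, and 33.8, 46.3, and 48.8 CPM on day 3. On day 7 their 3 libraries lay close together, at 17.0, 17.0, and 18.4 CPM.

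Lpcat1 (ENSMUSG00000021608, chr13:73467197-73516422, plus strand) kept a measurable level to the end of the culture. Its level in Krt8+/+ cells was 3518, 3461, and 3811 CPM on day 0, and 861, 105, and 472 CPM on day 1. It was 135, 144, and 178 CPM on day 3 and 113, 97.8, and 128 CPM on day 7. Its log2 change from day 0 was −2.91 (SE 0.54), −4.56 (SE 0.59), and −4.99 (SE 0.60) on the 3 days, which left 3.14% of the day 0 mean on day 7. In Krt8-/- cells it went from 3466, 3041, and 3060 CPM to 749, 108, and 379 CPM on day 1, 127, 145, and 172 CPM on day 3, and 95.9, 96.4, and 87.1 CPM on day 7.

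Abca3 (ENSMUSG00000024130, chr17:24351950-24410201, plus strand) ran beside Lpcat1. Krt8+/+ cells held it at 2506, 2197, and 1915 CPM on day 0 and at 577, 65.1, and 327 CPM on day 1. It then stood at 86.1, 139, and 104 CPM on day 3 and at 80.2, 104, and 97.1 CPM on day 7, so that the days 3 and 7 overlapped. Its log2 change from day 0 was −2.77 (SE 0.56), −4.33 (SE 0.60), and −4.55 (SE 0.60), with 4.26% of the day 0 mean left on day 7. Krt8-/- cells held 2245, 2169, and 1465 CPM on day 0, 519, 89.7, and 212 CPM on day 1, 117, 120, and 134 CPM on day 3, and 101, 128, and 79.6 CPM on day 7.

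Ctsh (ENSMUSG00000032359, chr9:90054152-90076089, plus strand) was the member that fell least. Krt8+/+ cells held it at 1256, 1385, and 1440 CPM on day 0 and at 432, 408, and 620 CPM on day 1. By day 3 it stood at 360, 474, and 508 CPM, and by day 7 at 277, 235, and 289 CPM. On day 1 its highest replicate was 1.52 times its lowest. The log2 change from day 0 was −1.48 (SE 0.18) on day 1, −1.60 (SE 0.18) on day 3, and −2.35 (SE 0.18) on day 7, which left 19.6% of the day 0 mean. Krt8-/- cells held 1211, 1337, and 1408 CPM on day 0, 431, 402, and 527 CPM on day 1, 579, 638, and 660 CPM on day 3, and 262, 261, and 180 CPM on day 7. Macrophages are also known to express Ctsh. The 8 macrophage markers summed to 12.4 to 146 CPM on day 0 and to 42.7 to 433, 25.8 to 231, and 9.21 to 223 CPM at the later times, and their part in the Ctsh level was not tested. None of the 8 macrophage markers was called lower on day 1 or day 7, 1 was called higher on day 1, and none was at 0 in all libraries of a group.

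Between day 0 and day 7, the losses spanned 12.50 ± 1.40 log2 (SD of 3 replicates) from Slc34a2 to Ctsh in Krt8+/+ cells. The span was 11.70 in replicate 1 and 11.68 in replicate 3, while the 14.12 of replicate 2 rests on the 0 counts of Slc34a2 on day 7, whose log2 value is set by the prior count. By the mean of the replicates, the order from the largest loss was Slc34a2, Lamp3, Napsa, Lpcat1, Abca3, and Ctsh. This order held in 5 of the 6 courses of genotype and replicate, and in replicate 1 of Krt8+/+ cells Abca3 and Lpcat1 changed places. Among neighbours in this order on day 7, the ranges over the 3 Krt8+/+ replicates were apart for every pair except Lpcat1 and Abca3, which differed by −0.44 ± 0.40. That pair was apart in Krt8-/- cells, at −0.84 ± 0.13. On day 1, Slc34a2 was apart from the next gene, Lamp3, by −6.22 ± 0.55 in Krt8+/+ and −6.50 ± 0.58 in Krt8-/- cells, while the other neighbours overlapped.

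**Figure D2:**
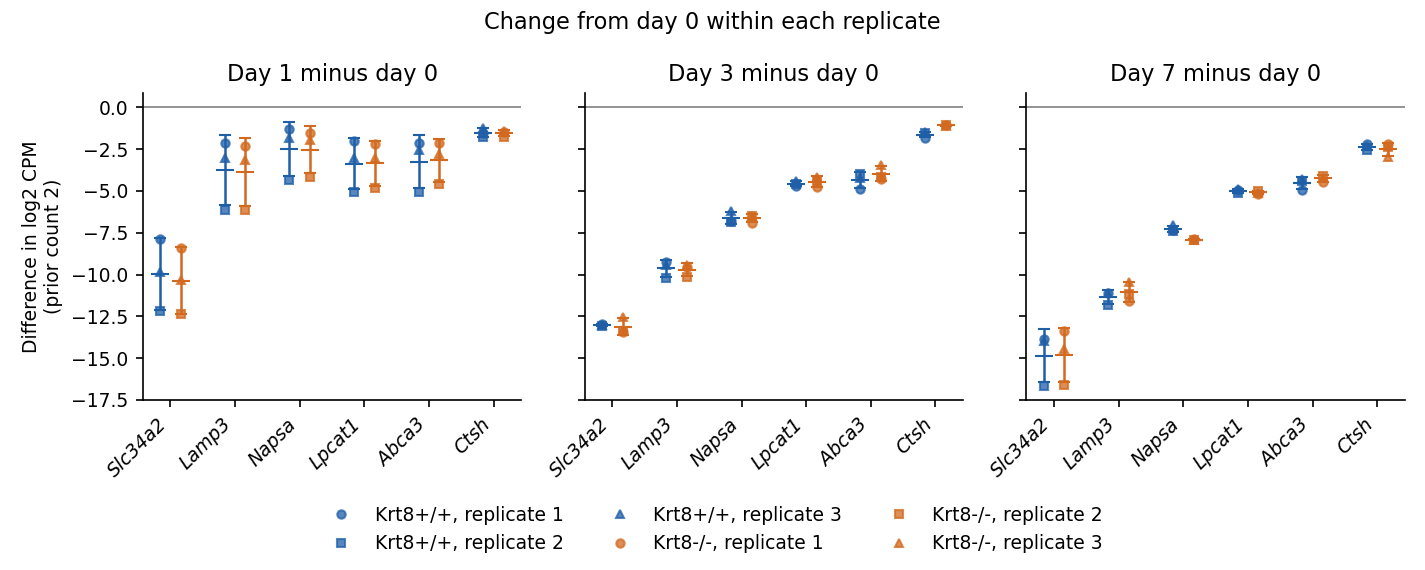
Difference in log2 CPM (prior count 2) from day 0 on days 1, 3, and 7, with 1 point per replicate and the mean with its SD (n = 3), for both genotypes. On day 1 Slc34a2 stands alone at −9.97 in Krt8+/+ cells, and by day 7 the 6 genes form a staircase from −14.85 to −2.35, where the lowest Slc34a2 point of each genotype comes from a count of 0 and is set by the prior count.

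Per length of exon, the order of the levels turned over. In Krt8+/+ cells on day 0, Slc34a2 stood at 2991 ± 125 CPM per kb (SD, n = 3), followed by Napsa at 1446 ± 131 and Lamp3 at 1433 ± 27.3, which did not differ beyond their spread. Lpcat1 followed at 777 ± 40.6, then Ctsh at 302 ± 21.1 and Abca3 at 235 ± 31.5 CPM per kb. On day 7 Ctsh stood highest, at 59.4 ± 6.29 CPM per kb, above Lpcat1 at 24.4 ± 3.27. Abca3, between 8.56 and 11.1, and Napsa, between 7.89 and 11.7, overlapped, and Lamp3 at 0.529 ± 0.159 and Slc34a2 at 0.107 ± 0.0942 CPM per kb came last. The gene that was highest per length on day 0 was the lowest on day 7. On day 1, Napsa (349 ± 241), Lamp3 (180 ± 160), Ctsh (108 ± 25.7), and Lpcat1 (103 ± 81.5) overlapped. Krt8-/- cells had the same order on day 0 and on day 7, but there Napsa and Lamp3 were apart on day 0 (1593 ± 72.0 and 1290 ± 164) and Abca3 and Napsa on day 7 (8.49 to 13.7 and 6.39 to 6.92).

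**Figure D3:**
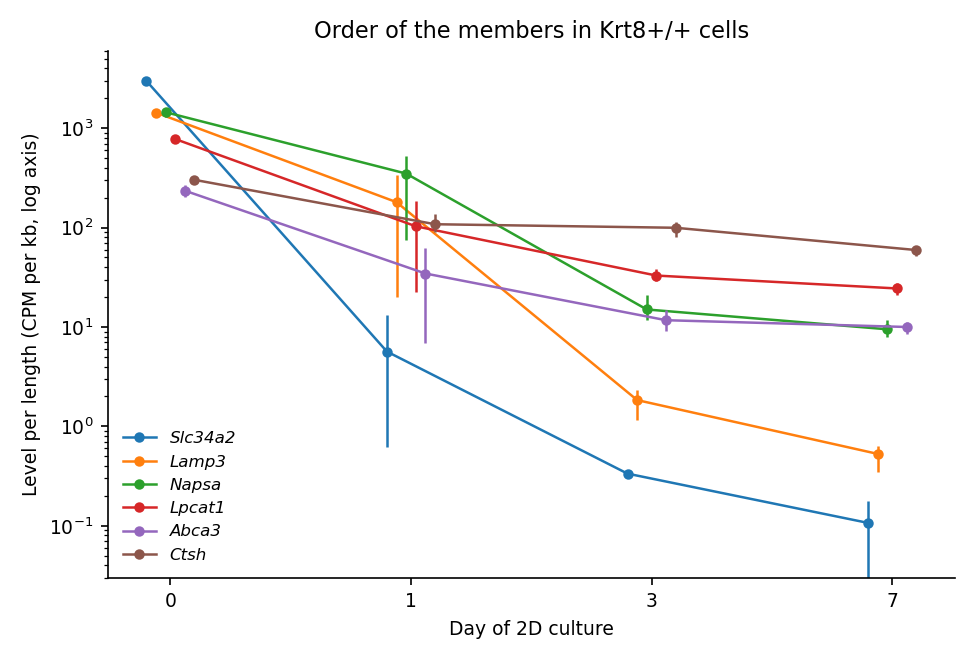
Level per exon length (CPM per kb, log axis) of the 6 genes in Krt8+/+ cells against the day of culture, with the mean and a bar from the lowest to the highest of 3 replicates (a bar that reaches the axis ends at 0). Slc34a2 starts at 2991 and ends at 0.107, and Ctsh goes from rank 5 to rank 1.

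The replicates differed widely on day 1. Replicate 2 was the lowest of the 3 in all 12 courses of gene and genotype, and in 10 of these, all but Ctsh, the order was replicate 1, then 3, then 2. In Krt8+/+ cells, replicate 1 stood 21.6 times above replicate 2 for Slc34a2, 16.8 times for Lamp3, 8.86 times for Abca3, 8.20 times for Lpcat1, and 7.07 times for Napsa. For Ctsh that ratio was 1.06. In Krt8-/- cells the ratios were 17.3, 14.0, 5.79, 6.94, 5.92, and 1.07 in the same order of genes. The AEC2 markers moved the same way, with a sum of 68118, 12488, and 55174 CPM in replicates 1, 2, and 3 of Krt8+/+ cells on day 1. The 4 club or ciliated markers were highest in replicate 2, at 15727 against 4888 and 7766 CPM, and in Krt8-/- cells they were at 8368, 11495, and 7474 CPM in replicates 1, 2, and 3. Macrophage markers of the Krt8+/+ cells were at 433, 257, and 51.5 CPM. The part of these cells in the day 1 levels was not tested. Without replicate 2, the log2 change on day 1 was −2.21 (SE 0.37) for Abca3, −2.41 (SE 0.36) for Lamp3, −2.39 (SE 0.32) for Lpcat1, −1.48 (SE 0.27) for Napsa, and −8.44 (SE 0.86) for Slc34a2, all still past the threshold. Without replicate 1 the same changes were −3.39 for Abca3, −3.84 for Lamp3, −3.66 for Lpcat1, −2.55 for Napsa, and −10.62 for Slc34a2, which were also called (adjusted p up to 0.0136 in edgeR). Without replicate 3 they were called closer to the threshold, with Lamp3 at −2.98 (SE 1.11, adjusted p = 0.0446 in edgeR). On day 3 the Krt8+/+ replicates of Lamp3 lay between 3.89 and 7.87 CPM and those of Slc34a2 between 1.59 and 1.84 CPM.

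From day 1 to day 3, 5 of the 6 genes fell further in Krt8+/+ cells, where 11.9% of all genes were called lower. The log2 changes were −6.60 (SE 0.86) for Lamp3, −4.54 (SE 0.59) for Napsa, −4.07 (SE 0.95) for Slc34a2, −1.65 (SE 0.52) for Lpcat1, and −1.56 (SE 0.53) for Abca3. For Lamp3, Napsa, and Slc34a2 the replicates of the 2 days did not overlap, as for 16.0% of all genes in this direction, and for Lpcat1 and Abca3 they did. Ctsh had a value of −0.12 (SE 0.17, adjusted p = 0.645). In Krt8-/- cells 4 of the 6 fell, against 10.2% of all genes, at −6.54 (SE 0.87) for Lamp3, −4.44 (SE 0.59) for Napsa, −3.71 (SE 0.96) for Slc34a2, and −1.48 (SE 0.52) for Lpcat1. The values of the other genes in Krt8-/- cells were −1.15 (adjusted p = 0.123) for Abca3 and 0.46 (adjusted p = 0.0595) for Ctsh.

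Within replicate 2, Abca3 went up from day 1 to day 3 by 1.09 log2 in Krt8+/+ and by 0.42 in Krt8-/- cells, and Lpcat1 by 0.45 and 0.42. In replicates 1 and 3, both genes went down in both genotypes, by 0.67 to 2.74 log2. With a replicate block, Abca3 in Krt8+/+ cells (−1.42, adjusted p = 0.0515) and Lpcat1 in Krt8-/- cells (−1.29, adjusted p = 0.0557) were not called, while Ctsh in Krt8-/- cells was (0.47, adjusted p = 0.0434). Without replicate 1, the counts of genes lower were 3 in Krt8+/+ and 2 in Krt8-/- cells, and without replicate 3 they were 2 in each. For these fits no share of all genes is given. Lamp3 and Napsa were called lower in both genotypes whichever replicate was left out.

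From day 3 to day 7 Ctsh was the only one of the 6 to pass the test in either genotype. It fell by 0.75 log2 (SE 0.18, adjusted p = 0.0115) in Krt8+/+ and by 1.42 (SE 0.18, adjusted p = 2.6e-05) in Krt8-/- cells. Of all genes, 3.47% and 6.15% were called lower. Without replicate 1 or without replicate 2, the adjusted p of Ctsh in Krt8+/+ cells was 0.0588 and 0.288. The other values in Krt8+/+ cells lay between −1.78 (Lamp3, adjusted p = 0.248) and −0.22 (Abca3, adjusted p = 0.886), and in Krt8-/- cells between −1.39 (Lamp3, adjusted p = 0.349) and −0.27 (Abca3, adjusted p = 0.829). These tests use 1 spread per gene from all 8 groups, day 1 included. Within replicates 1, 2, and 3 of Krt8+/+ cells, Lamp3 changed by −1.83, −1.63, and −1.66, and Abca3 by −0.10, −0.41, and −0.10. The fit of only the compared groups called more of the 6, as given below, but no share of all genes is given for that fit. The libraries of the 2 days did not overlap for 5 of the 6 genes in Krt8+/+ and 4 in Krt8-/- cells, where day 7 lay lower, as it did for 13.7% and 16.3% of all genes.

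Between genotypes, 0 of the 6 genes were called on any day. Over all genes, 0.0277% were called between genotypes in fresh cells and 0.0166% at each of the 3 later times. At an unadjusted p under 0.05, 1 of the 24 values passed in edgeR, that of Ctsh on day 3, and DESeq2 also called 0 after adjustment on each day. Of all genes, 2.65%, 3.54%, 2.50%, and 1.41% passed that unadjusted p on days 0, 1, 3, and 7. The log2 difference of Krt8-/- from Krt8+/+ cells lay between −0.17 and 0.14 over the 6 genes on day 0. It lay between −0.61 and 0.01 a day later, between −0.29 and 0.48 on day 3, and between −0.53 and 0.13 at the end. Within replicates 1, 2, and 3, Slc34a2 on day 1 differed by −0.57, −0.24, and −0.76, and Lamp3 by −0.29, −0.03, and −0.52. Both were lower in Krt8-/- cells in 3 of 3 replicates, as was Ctsh on that day (−0.00, −0.02, and −0.23). On day 7 so were Lpcat1 (−0.24, −0.02, and −0.56) and Napsa (−0.30, −0.48, and −0.75). On day 0 Abca3, Lpcat1, Ctsh, and Slc34a2 were also lower in all 3, at −0.39 to −0.02. Napsa on day 0 and Ctsh on day 3 were higher in all 3. No share of all genes with 1 direction in all 3 replicates is given. The fit with a replicate block also called 0 of the 6. The 95% intervals rest on 1 spread per gene from all 8 groups, day 1 included, and leave out the pairing of replicates. On day 0 they ran from −0.41 to 0.32 for Ctsh, from −0.91 to 1.19 for Napsa, and from −1.70 to 1.46 for Slc34a2. With a replicate block the Slc34a2 interval on day 0 was −1.40 to 1.14. Its differences within replicates 1, 2, and 3 on that day were −0.03, −0.07, and −0.28. On day 7 the interval of Slc34a2 was −2.92 to 3.05, where 24 and 28 counts were left in the Krt8+/+ and Krt8-/- libraries.

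Ctsh on day 3 had the smallest unadjusted p of these values. Its 3 Krt8-/- libraries, at 579, 638, and 660 CPM, lay above the 3 Krt8+/+ libraries, at 360, 474, and 508 CPM. Over all genes, the genotypes did not overlap in either direction for 6.88%, 5.79%, 11.0%, and 5.54% of genes on days 0, 1, 3, and 7, and of the 6 genes for 0, 0, 1, and 2. The log2 difference was 0.48 (SE 0.18, unadjusted p = 0.0121, adjusted p = 1.00 in edgeR), with 0.68, 0.43, and 0.38 in replicates 1, 2, and 3. Without replicate 1, where the sexes differed, it was 0.40 (SE 0.23, unadjusted p = 0.105 in edgeR). Macrophage markers summed to 165, 72.9, and 25.8 CPM in the Krt8-/- and to 231, 69.9, and 32.9 CPM in the Krt8+/+ libraries on that day. On day 7 the Napsa and Lpcat1 libraries of the genotypes also did not overlap, with differences of −0.53 (SE 0.53) and −0.28 (SE 0.51). The test of the genotype difference over all days called 0 of the 6, against 0.00554% of all genes, with an unadjusted p of 0.0546 for Ctsh and 0.783 to 0.989 for the others in edgeR.

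**Figure D4:**
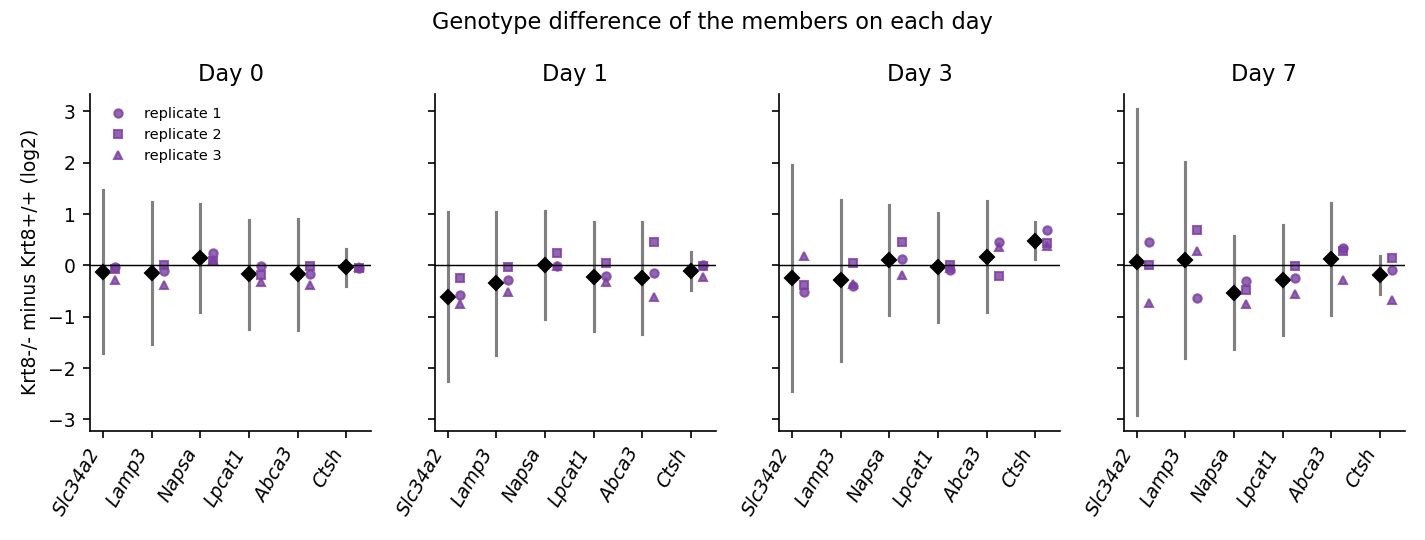
Log2 difference of Krt8-/- from Krt8+/+ cells for each gene on days 0, 1, 3, and 7, with edgeR's estimate (diamond) and 95% interval (bar), and the difference within each replicate (purple). The intervals include 0 except for Ctsh on day 3 (0.12 to 0.85), which was not past the threshold after adjustment.

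Relatives of the 6 genes by protein family moved in both directions, as did all genes, of which 30.2% fell and 28.6% rose by day 7 in Krt8+/+ cells. The sodium-phosphate transporters Slc20a1 and Slc20a2 rose between day 0 and day 7 in Krt8+/+ cells, 2 of 2 tested, while Slc34a2 was lost. Slc20a1 went from 28.7, 16.4, and 19.6 CPM to 103, 113, and 94.7 CPM, a log2 change of 2.25 (SE 0.23), and Slc20a2 from a mean of 34.6 to 91.2 CPM. Among the LAMP relatives of Lamp3, 1 of 3 was lower. Lamp2, of the lysosomal membrane, fell by 0.64 log2 (SE 0.16), Lamp1 had 1262 ± 105 CPM on day 0 and 1126 ± 106 on day 7 (−0.16, adjusted p = 0.208), and Cd68, also a macrophage marker, went from 7.90 ± 3.32 to 28.4 ± 31.5 CPM (1.83, adjusted p = 0.119). With library totals as the scale 0 of the 3 were lower and 1 was higher. With a replicate block, and without replicate 3, 1 was lower and 1 higher. Krt8-/- cells had 1 of 3 lower and 2 of 2 phosphate transporters higher.

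The protease relatives were also split. Of the 4 aspartic protease relatives of Napsa, 2 rose and 1 fell. Ctsd, the common lysosomal aspartic protease, rose from 443, 519, and 407 CPM to 3322, 2354, and 1504 CPM (log2 2.39, SE 0.26). Ctse rose from 1.54 to 95.8 CPM (5.95, SE 0.46), and Bace2 fell from 6.52 to 1.01 CPM. Of the 9 cysteine cathepsins beside Ctsh, 4 rose and 3 fell. Ctsl, a lysosomal endopeptidase, rose from 118 ± 5.42 to 647 ± 75.5 CPM (2.46, SE 0.13) and Ctsw from 0.257 to 36.1 CPM. Ctsc, which activates serine proteases, fell from 3541, 3832, and 4239 CPM to 126, 79.7, and 74.8 CPM (−5.37, SE 0.42), and Ctso from 50.3 to 26.3 CPM. Without replicate 2, 2 of the 9 rose and 2 fell. For these lists the background is that 28.6% of all genes rose and 30.2% fell. Macrophages also express several cathepsins. In Krt8+/+ cells on day 7, Ctsk was at 81.6, 28.4, and 17.7 CPM in replicates 1, 2, and 3. Ctss was at 129, 41.5, and 1.39 CPM, and the macrophage markers were at 223, 60.4, and 9.21 CPM. Of the other relatives named here, Ctsd, Ctse, Ctsw, and Ctsc had the same order of replicates, and Bace2, Ctsl, and Ctso did not. The part of macrophages in these levels was not tested. The Krt8-/- cells had a like split, in which 3 of the 4 aspartic proteases rose and 1 fell, and 3 of the 9 cathepsins rose and 3 fell.

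Of the acyltransferases related to Lpcat1, 1 rose and 1 fell among 3 tested. Lpcat4 went from 22.4 ± 4.65 to 101 ± 26.6 CPM (2.18, SE 0.24) and Lpcat3 from 130 ± 8.54 to 57.2 ± 5.80 CPM (−1.18, SE 0.10). Of the 8 tested ABCA transporters beside Abca3, 4 fell and 1 rose. Beside both lists, 30.2% of all genes fell and 28.6% rose. Abca5 rose from 15.4 to 42.5 CPM (1.46, SE 0.31), Abca2 fell from 69.4 to 22.1 CPM (−1.65, SE 0.35), and Abca4 fell from 2.63 to 0.626 CPM. Abca8a was at 13.4, 3.90, and 1.33 CPM on day 0 and had no count on day 7, which is at least 86.4-fold lower (3 counts over the group), or at least 23.6-fold lower without replicate 1. The median of the 8 was −1.49 log2, with Abca8a at its bound also, against 0.00 over all genes, and −0.76 without replicate 1. Krt8-/- cells also had 4 of these 8 lower and 1 higher, and 1 acyltransferase in each direction. A further 9 genes of these and the following lists, among them Slc34a1, Slc34a3, and Lamp5, had too few reads to be tested.

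**Figure D5:**
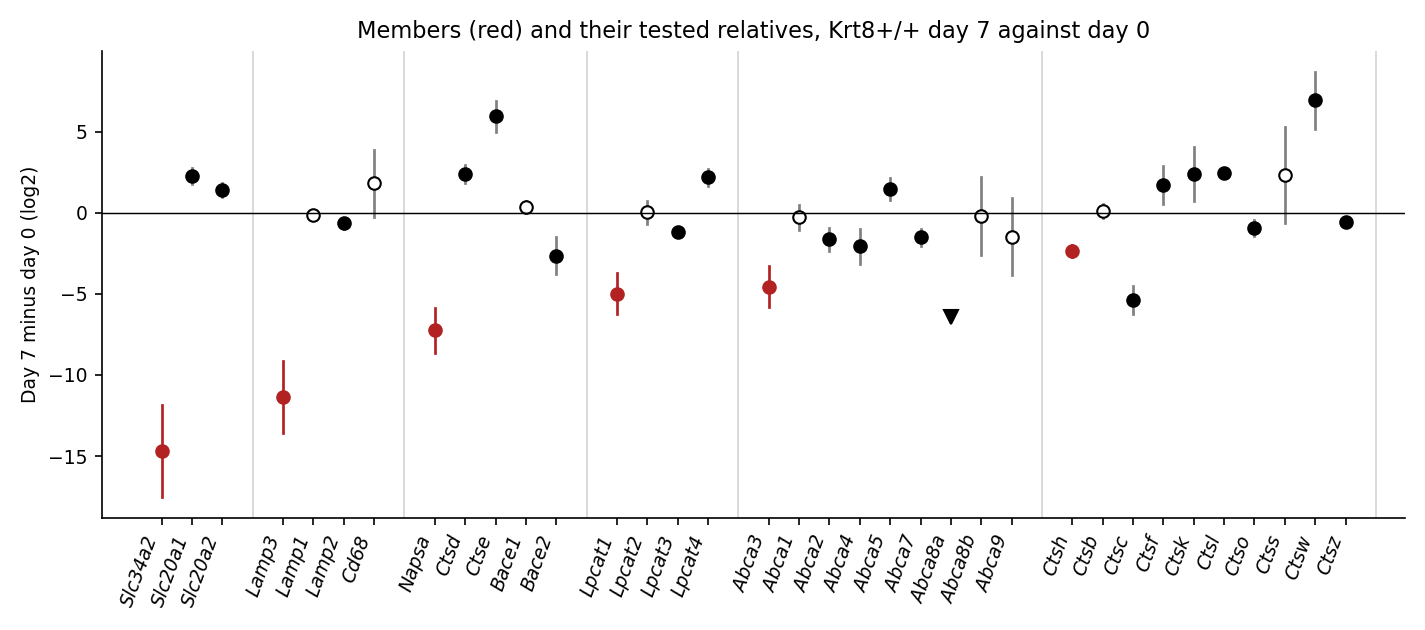
Log2 difference between day 7 and day 0 in Krt8+/+ cells for the 6 genes (red) and their tested family relatives (black), with 95% intervals, where filled points passed the adjusted threshold and the triangle marks a bound. The red points lie between −14.67 and −2.35, and relatives lie on both sides of 0, among them Ctsd at 2.39, Ctsl at 2.46, and Slc20a1 at 2.25.

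The surfactant protein genes fell with the members. All 4 surfactant protein genes were lower on day 7 in both genotypes, with a median of −12.48 log2 in Krt8+/+ cells. Sftpc went from a mean of 186650 to 48.8 CPM, Sftpb from 8587 to 0.968 CPM, and Sftpa1 from 49454 to 0.993 CPM. On day 1 Sftpc was at 66036, 12171, and 53552 CPM in replicates 1, 2, and 3, so that it held 23.5% of its day 0 mean, Sftpa1 20.0%, and Sftpb 13.9%. The members held 35.8% (Ctsh), 24.1% (Napsa), 14.7% (Abca3), 13.3% (Lpcat1), 12.5% (Lamp3), and 0.189% (Slc34a2) of theirs. Sftpd had a mean of 4505 CPM on day 0 and 967 CPM on day 1. Of 8 other lamellar body proteins tested, 5 fell, with a median of −1.41, where 30.2% of all genes fell. Npc2, which carries cholesterol, fell from 2575 to 175 CPM (−3.88, SE 0.35), and the lysozyme gene Lyz2 from 39845 to 1291 CPM (−4.95, SE 1.29). Lyz2 is also a macrophage gene, and on day 7 it stood at 3019, 839, and 15.5 CPM in replicates 1, 2, and 3 of Krt8+/+ cells, whose macrophage markers summed to 223, 60.4, and 9.21 CPM. Their part in the Lyz2 level was not tested. The count in Krt8-/- cells was 6 of 8, where 29.9% of all genes fell. With library totals as the scale, 4 fell and 2 rose.

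Genes of the machinery that builds lysosome-related organelles moved in both directions. The 19 genes tested came from the AP-3, BLOC, and HPS complexes and their Rab proteins, with Lyst and Vps33a added. Of these 19, 5 fell, 3 rose, and 11 were not called, with a median of −0.15. Of all genes, 30.2% fell and 28.6% rose. Rab27a, a Rab of secretory granules, fell from 84.5 ± 7.49 to 2.58 ± 1.08 CPM (−5.04, SE 0.55), and the trafficking regulator Lyst from 17.4 to 5.06 CPM. Rab32, which acts in the sorting of proteins to such organelles, rose from 3.82 to 17.7 CPM (2.22, SE 0.36), and the AP-3 subunits Ap3s1 and Ap3m1 rose from 43.8 to 125 and from 118 to 179 CPM. On the scale of library totals the split was 3 lower and 8 higher and the median 0.31, so the sign of the median depended on the scale. It was also 0.01 without replicate 2, and 0.12 in Krt8-/- cells, where 4 fell and 4 rose.

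Enzymes that make phosphatidylcholine were mostly lower. Of 6 tested, 5 fell by day 7 in Krt8+/+ cells, with a median of −1.17 log2, where 30.2% of all genes fell. The choline kinase gene Chka was at 290 CPM on day 0, 281 CPM on day 1 (adjusted p = 0.923), and 48.2 CPM on day 7 (−2.59, SE 0.40). Pcyt1a, the rate-limiting enzyme of this route, fell from 157 to 61.9 CPM (−1.34, SE 0.14). All 7 transcription factors of AEC2s were lower on day 7, with a median of −2.94. Etv5 fell from 1809 ± 77.4 to 27.7 ± 8.57 CPM (−6.03, SE 0.68) and Cebpa from 180 to 3.25 CPM (−5.78, SE 0.43). With library totals, and without replicate 2, 6 of these 7 were lower. Of the same genes in Krt8-/- cells, 5 of the 6 enzymes fell and 1 rose, and all 7 factors fell.

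Over the 24 libraries, the members had Pearson correlations of log2 CPM with each other between 0.814 and 0.994, which is a description of libraries that share the same 4 days. Among all other genes tested, those most like Slc34a2 were Gde1 (r = 0.991), Ctsc (0.989), and Pfkfb4 (0.987). Those most like Lamp3 were Ang (0.995), Sfta2 (0.992), and Lrg1 (0.992), and those most like Napsa were Sftpd (0.996), H2-Aa (0.992), and Gstt1 (0.992). Abca3 and Lpcat1 shared 2 of their 3 nearest genes, Dram1 and Ahcyl2, with Snx25 the third for Abca3 (0.989) and Pi4k2b the first for Lpcat1 (0.994). Ctsh was nearest to Rasgef1a (0.980), Psmb9 (0.974), and Plekhb1 (0.967), at lower values than the other members. With Spearman's coefficient, at most 1 of the 3 nearest genes of a member remained.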

How the data were processed

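RNA-Seq counts of 24 libraries were analysed. The deposited values were raw read counts per Ensembl gene, and per the labels the authors used cutadapt 2.3, STAR 2.7.8a, and RSEM 1.3.3 with GRCm38, with no role or strand setting stated. If RSEM made them, they are rounded estimates. The table had 55426 entries, of which 5 were reporters with 0 counts, and GENCODE M21 gave symbols and exon lengths (the union of exons) for 55240. Abca3 and Napsa overlap transcripts of the opposite strand, D330041H03Rik and Gm15396, which held 255 and 238 counts in all.

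The software was DESeq2 1.42.0, limma 3.58.1, and edgeR 4.0.16 under R 4.3.3. Low genes were removed by edgeR's filterByExpr at a min.count of 10 and a min.total.count of 15. The rest were scaled with TMM and fitted with 1 quasi-likelihood model of 8 groups (16 residual degrees of freedom). P values were adjusted by Benjamini-Hochberg at 0.05. Log2 CPM used a prior count of 2. Intervals are 95% and rest on the spread between libraries, while limits for a count of 0 cover counting error only. The labels give the libraries of a group as biological replicates.

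The replicate numbers mark a shared batch in the labels and so pair the libraries, whose paired deviations from group means correlated at −0.0345 to 0.548 across genes. None of the 24 library pairs within groups was identical (chi-square per gene 9.44 to 110). The genes followed and the gene lists were chosen with earlier results of these data known. The genes named from each list were its most abundant one in Krt8+/+ libraries and, for Krt8+/+ day 7 against day 0, up to 2 of the largest rises and 2 of the largest falls among called genes that moved 1 way in all 3 replicates and reached 1 CPM in a group. Cd68 was named after its values were seen, and Ctsk and Ctss were also named outside this rule. The genes most like each of the 6 were the 3 with the highest Pearson correlation. Procedures were tested on simulated data. Alternatives were DESeq2's size factors, library totals, the DESeq2 test, no filter, a replicate block, each replicate left out, fits of only the compared groups, a prior count of 0.5, and Spearman correlation. For the lists, scaling and left-out replicates were added after the values were seen.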

Additional observations from a re-analysis of the deposited data

How the results depend on the processing

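The falls of all 6 genes on days 1, 3, and 7 against day 0, and the count of 0 between genotypes, held under every alternative run. Of 961 alternative values for 111 results, 914 kept their direction and side of the threshold or their size. Library totals without TMM moved the median of all genes by 0.43 to 0.60 log2 for comparisons with day 0.

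The steps between culture days depended on more choices, and the cause was not tested. The count of genes called from day 1 to day 3 was 3 with only the compared groups in Krt8+/+ cells, and leaving out replicates gave 2 to 5 in Krt8+/+ and 2 to 5 in Krt8-/- cells. From day 3 to day 7 the fit of only the compared groups called 2 genes in Krt8+/+ and 4 in Krt8-/- cells, and leaving out replicates gave 0 to 1 and 1 to 2. No share of all genes is given for the alternative fits, so their counts have no background beside them. The replicate block called 2 of the 3 LAMP relatives, and without 1 replicate 1 to 2 were called. Without 1 replicate, 4 to 8 of the cysteine cathepsins were called. The pairing changed no other call of the 6 genes than those given above.

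Values near 0 changed sign. Ctsh in Krt8+/+ cells from day 1 to day 3 was 0.02 with library totals. Between genotypes, Napsa on day 1 was −0.01 with DESeq2's size factors and with the DESeq2 test, and −0.01 to 0.03 with 1 replicate left out, and on day 3 that range was −0.08 to 0.31. On day 7 the range with 1 replicate left out was −0.36 to 0.03 for Ctsh, −0.13 to 0.47 for Lamp3, and −0.90 to 0.53 for Slc34a2, which was −0.03 with the replicate block. Slc34a2 rested there on 24 and 28 counts per genotype, which limits its precision.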
